A study of Arabidopsis thaliana with 82 samples.

Results

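Grafted Arabidopsis thaliana hypocotyls were compared with intact ones 240 h, or 10 days, after the operation, in 6 of the 82 RNA sequencing libraries of a grafting time course. All libraries that the labels call grafted top (2), grafted bottom (2) or intact (2) at 240 h were taken, so that 4 grafted libraries stood against 2 intact ones. The seedlings were wild-type Col-0, 7 days old at the start, grown on sucrose-free agar at 20 °C with 8 h of light a day, and 1 cotyledon was removed from every plant, the intact ones included. Grafted plants had been cut across the hypocotyl and the shoot of one plant joined to the root of another. "Top" is hypocotyl tissue from above the junction and "bottom" tissue from below it, and intact hypocotyls were never cut. Separated plants, used here as a second reference, were cut in the same way and both pieces left apart. Replicates are labelled as independent, with 2 libraries a group. The grafts are called healed here only because of their age: the sources used here do not say whether each junction had joined.

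When a hypocotyl is severed, both faces of the wound set off rapid defence and jasmonate signalling, and cells next to the cut re-enter division. The cambium, the dividing layer between xylem and phloem, is then the source of new vessels and sieve tubes that link the cut ends. Wound surfaces are sealed with lignin and suberin, polymers that also line the walls of the endodermis. The endodermis is the innermost cortical layer, and its Casparian strip, a belt of lignin held in place by CASP membrane proteins, blocks diffusion through the wall. In the bulk tissue measured here, fewer cells of a type and less RNA per cell cannot be told apart.

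Levels are given as x, the deposited library-normalised value multiplied by 1 constant so that the median library sums to 1e+06. They are not per gene length, so levels of different genes are not compared. Differences are log2(x + 1) values with a pseudocount of 1, which understates changes of low genes, and standard errors and adjusted p-values come from limma over the 20766 genes tested. A gene is called at an adjusted p under 0.05. Depth could be estimated for 5 of the 6 libraries, from the step size of low values, and was 8.74 to 14.2 M reads (M, 1e+06), so that an x of 1 stood for about 9.92 to 13.7 reads. Both grafted libraries numbered 1 lay farther from intact (correlation with the intact mean across genes 0.902 and 0.911) than both numbered 2 (0.932 and 0.945). Results that rest on this difference are given with and without those libraries.

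Expression still differed widely between grafted and intact hypocotyls after 240 h. Of the 20766 genes tested, 7433 were called, which is 35.8%, with 3723 higher and 3710 lower in the grafts. Changes of at least 2-fold were called for 2067 higher and 1039 lower genes. Tops differed from intact hypocotyls in 6611 genes (31.8%) and bottoms in 6324 (30.5%). Both comparisons share the 2 intact libraries, so what those libraries have by chance enters both sides alike. Same-numbered tops and bottoms also deviated together (correlation 0.415 across genes at 240 h), and the fit treated them as independent. Standard errors of grafted minus intact may therefore be too small, and the sides are not independent evidence. 2570 genes were higher than intact on both sides and 2330 lower, 23.6% of the genes tested, while 7 were called in opposite directions. The 4 grafted libraries lay above both intact libraries for 2554 of the 2570 genes and below both for 2324 of the 2330. That adds little, since the genes were called from the same libraries. Groups that do not overlap are common here, since they occurred in 48% of all genes tested. Leaving out the libraries numbered 1 of all 3 groups lowered the count of 7433 to 3604 and the both-sides count of 4900 to 1670, whereas 3657 were called on both sides without those numbered 2. Without grafted bottom replicate 1 alone the both-sides count was 2964 and that of bottoms 3495, and without grafted top replicate 1 that of tops was 4026. No gene called on both sides was called on both sides in the other direction under the alternatives run.

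**Figure D1:**
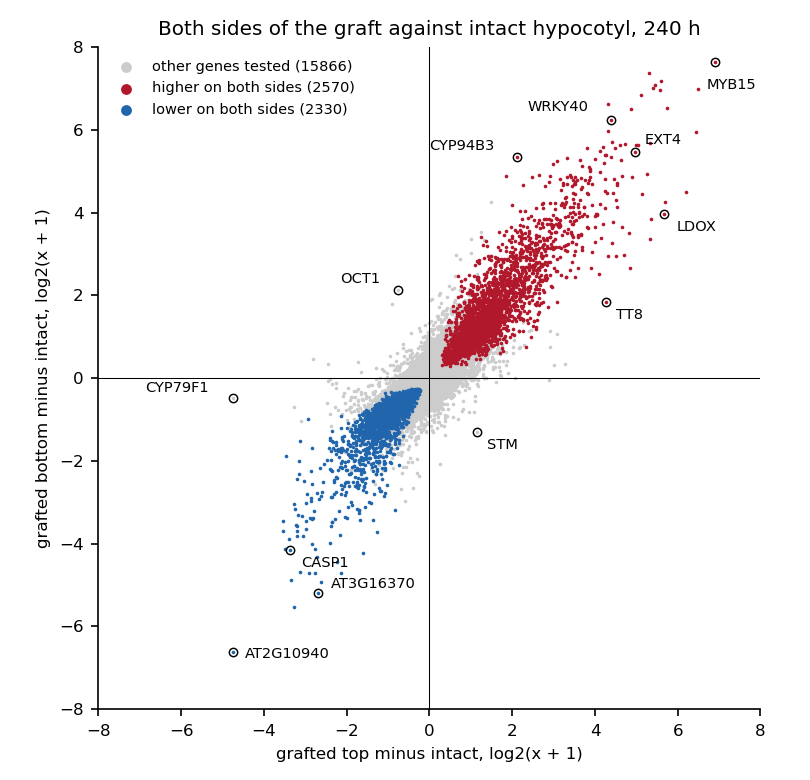
Difference from intact at 240 h for each gene tested, above the junction on the horizontal axis and below it on the vertical axis, both in log2(x + 1). The 2570 genes higher on both sides (red) and the 2330 lower on both sides (blue) lie along the diagonal, and grey points are the other genes; both axes share the 2 intact libraries.

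The genes with the largest differences were low in intact hypocotyls and included stress-response regulators and wall proteins. MYB15, a transcription factor that promotes lignin formation during immune responses, had x values of 440 and 165 in tops, 603 and 340 in bottoms, and 1.05 and 1.54 in intact hypocotyls. All grafted libraries were thus far above both intact ones, and on each side replicate 1 was the higher of the pair. The difference was 7.26 ± 0.36 (SE; adjusted p = 2e-21), a 154-fold higher level on the log2(x + 1) scale. CYP706A2, a cytochrome P450, had values of 335 and 135 in tops, 426 and 213 in bottoms, and 1.46 and 1.29 in intact tissue, a difference of 6.74 ± 0.31 (adjusted p = 2.6e-22). RRTF1, a redox-responsive ERF-type transcription factor, was at 131 and 29.1 in tops, at 409 and 167 in bottoms, and at 0.243 and 1.05 in intact tissue. Its difference was 6.33 ± 0.43 (adjusted p = 1.2e-16), and it was higher in bottoms than in tops. WRKY48, a stress-induced WRKY transcription factor, followed the same order, with 151 and 68.2 in tops, 354 and 204 in bottoms, and 0.971 and 1.38 in intact tissue (6.26 ± 0.24, adjusted p = 9.8e-25).

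Wall proteins were also among the 12 highest. EXLA3, an expansin-like protein, was at 73.8 and 39.8 in tops, at 117 and 75.5 in bottoms, and at 0.0809 and 0 in intact hypocotyls. Its difference of 6.12 ± 0.48 (adjusted p = 1.6e-14) depends on the pseudocount, because the intact level rests on about 1 read. PRXCB, a class III peroxidase of the cell wall, was at 593 and 53.2 in tops, at 133 and 118 in bottoms, and at 1.7 and 0.566 in intact tissue. A single top library was thus far above the other 3 grafted ones, although all 4 exceeded intact tissue (6.19 ± 0.49, adjusted p = 1.6e-14). A second peroxidase, AT2G18150, differed by 5.50 ± 0.30 (adjusted p = 8.1e-20). The remaining genes were AT4G29780, annotated as a nuclease (6.38), AT1G19210, an ERF-type DNA-binding protein (6.27), AT5G52050, a MATE-type transporter (6.20), AT3G02840, an ARM repeat protein (5.97), and AT5G41750, a TIR-NBS-LRR immune receptor (5.69). For all 12 genes the 4 grafted libraries exceeded both intact ones. That adds little, since the genes were picked by their difference and the groups did not overlap in 48% of all genes tested.

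Since these genes were high together, the 300 bases before their annotated start were read from the RefSeq assembly TAIR10.1, in the gene's own direction. They were searched on both strands for CGCGTT, known as the rapid stress response element, for TTGACC, a form of the W-box that WRKY proteins bind, and for the G-box CACGTG. Such a window can reach into a neighbouring gene. The 3 promoters below are shown because MYB15 had the largest difference and because EXLA3 and AT1G19210 were the only ones of the 12 highest genes with CGCGTT. The windows are chr3:8308909-8309208 (plus strand) for MYB15, chr3:16892402-16892701 (plus strand) for EXLA3 and chr1:6627689-6627988 (minus strand) for AT1G19210. Capitals mark the motifs, and AACGCG and GGTCAA are CGCGTT and TTGACC read on the other strand.
MYB15: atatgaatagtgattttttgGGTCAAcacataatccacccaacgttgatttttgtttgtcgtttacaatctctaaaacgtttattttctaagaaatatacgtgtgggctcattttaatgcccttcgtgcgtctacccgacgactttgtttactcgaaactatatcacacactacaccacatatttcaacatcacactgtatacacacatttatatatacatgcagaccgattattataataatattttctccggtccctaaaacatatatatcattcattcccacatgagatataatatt
EXLA3: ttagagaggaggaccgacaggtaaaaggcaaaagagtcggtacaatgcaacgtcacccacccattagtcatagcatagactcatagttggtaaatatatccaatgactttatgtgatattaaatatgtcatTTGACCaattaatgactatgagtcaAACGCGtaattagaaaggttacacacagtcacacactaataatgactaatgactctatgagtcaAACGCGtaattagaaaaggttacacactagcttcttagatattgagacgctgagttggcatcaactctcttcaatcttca
AT1G19210: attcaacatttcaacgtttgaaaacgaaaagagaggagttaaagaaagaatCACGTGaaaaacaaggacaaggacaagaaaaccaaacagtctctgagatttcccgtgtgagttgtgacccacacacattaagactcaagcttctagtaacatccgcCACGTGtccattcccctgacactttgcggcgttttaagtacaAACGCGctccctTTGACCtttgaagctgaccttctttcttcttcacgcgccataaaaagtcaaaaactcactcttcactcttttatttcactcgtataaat

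The EXLA3 window held 2 copies of CGCGTT and 1 of TTGACC, that of AT1G19210 held 1 of each and 2 G-boxes, and that of MYB15 held 1 TTGACC only. CGCGTT occurred in 3.32% of the 20563 promoters of tested genes that could be read. Its share was 6.04% (155 of 2567) among genes higher on both sides, 9.27% (62 of 669) among those higher by at least 4-fold, and 2.36% among genes lower on both sides. TTGACC occurred in 14.09% of all promoters, in 16.6% of those of the higher genes, in 20.33% of those higher by at least 4-fold, and in 12.08% of those of the lower genes. In the rapid stress response list described below, 1 of 18 promoters held CGCGTT (5.56%) and 6 held TTGACC (33.33%). TTGACC was also in 6 of the promoters of the 12 highest genes (50%) and in 4 of those of the 12 lowest (33.33%). The G-box share was 7.98% in all promoters, 8.14% among higher and 8.34% among lower genes. These shares are descriptions of letters in the windows, and binding was not measured.

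Rapid stress response genes were nearly all higher in grafts, and the jasmonate and salicylic acid lists held more higher than lower genes. Among 18 tested genes of the rapid stress response list, which are switched on within minutes of wounding or elicitor treatment, 17 were higher and none lower, against 17.9% called higher over all genes. The list's median difference was 3.25, against -0.01 for all genes tested. 15 of the 18 were higher on both sides, against 12.4% of all genes. WRKY40, which restrains and shapes defence responses, was at 191 and 58.7 in tops, at 560 and 270 in bottoms, and at 3.16 and 5.34 in intact hypocotyls. Each bottom library exceeded each top library, and the difference from intact was 5.32 ± 0.43 (adjusted p = 3.6e-14). ZAT12, a zinc finger protein of oxidative stress responses, was at 92.1 and 55.8 in tops, 176 and 134 in bottoms, and 7.69 and 5.34 in intact tissue (3.84 ± 0.31, adjusted p = 3.3e-14). WRKY46 and WRKY18 were higher by 4.71 and 3.44. FRK1, a receptor kinase gene used as a marker of immune signalling, was the 1 gene not called (0.77, adjusted p = 0.11). The summed level of the list was 1411 to 4169 in the grafted libraries and 228 to 326 in the intact ones, with the highest sums in the libraries numbered 1 on each side.

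Of 24 jasmonate genes, 11 were higher and 1 lower, against 17.9% called higher over all genes. The list's median was 1.74, though 0.88 for tops alone and 0.90 for bottoms alone. AOC3, an allene oxide cyclase of jasmonate synthesis, was at 94.4 and 50.4 in tops, 169 and 95.6 in bottoms, and 4.94 and 3.08 in intact tissue (4.27 ± 0.37, adjusted p = 2.5e-13). Genes that damp the response were among those higher: the repressor genes JAZ5 (3.89) and JAZ8 (3.81), and CYP94B3 (3.73), whose enzyme inactivates jasmonoyl-isoleucine. The repressor gene JAZ9 was the 1 lower gene (-1.10, adjusted p = 0.0087), and JAZ10, often used as a marker of the pathway, was not called (0.33, adjusted p = 0.55). The median depended on the libraries numbered 1, since it was 0.53 without them, with 8 members higher. Of 14 tested genes of salicylic acid and defence, 10 were higher and none lower (median 1.17), and 6 were higher without the libraries numbered 1. GRX480, a glutaredoxin gene induced by salicylic acid, differed by 4.19 ± 0.33 (adjusted p = 1.9e-14), and CBP60G, an activator of salicylic acid synthesis, by 2.66 ± 0.34 (adjusted p = 1.1e-08). Members of this list that were not tested because of low values include PR1 and FMO1.

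Among the other hormone lists, ethylene and auxin genes were called in both directions, abscisic acid genes only higher, and cytokinin genes hardly at all. In the ethylene list 4 of 15 tested genes were higher and 5 lower, against 17.9% of all genes in each direction. ACS6, which makes the ethylene precursor, was at 474 and 241 in tops, 787 and 574 in bottoms, and 18.8 and 26.1 in intact tissue (4.37 ± 0.37, adjusted p = 2.5e-13). In contrast, the ethylene receptor gene ETR2 was lower (-1.39, adjusted p = 3.2e-05). Of 20 genes of abscisic acid and drought, 9 were higher and none lower, among them the synthesis gene NCED3 (3.74, adjusted p = 1.1e-11) and the catabolic gene CYP707A1 (2.30, adjusted p = 2.8e-09). Auxin response genes were called no more often than all genes in either direction (3 higher, 3 lower of 19). The lower ones included IAA29 (-2.24, adjusted p = 1.1e-09) and IAA14 (-1.24, adjusted p = 1.9e-05). Of 12 cytokinin response genes 1 was higher, ARR4 (0.57, adjusted p = 0.02), and none lower. None of 13 clock genes was called. Without intact replicate 1 the ethylene list had 3 lower genes and the auxin list no higher one.

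**Figure D2:**
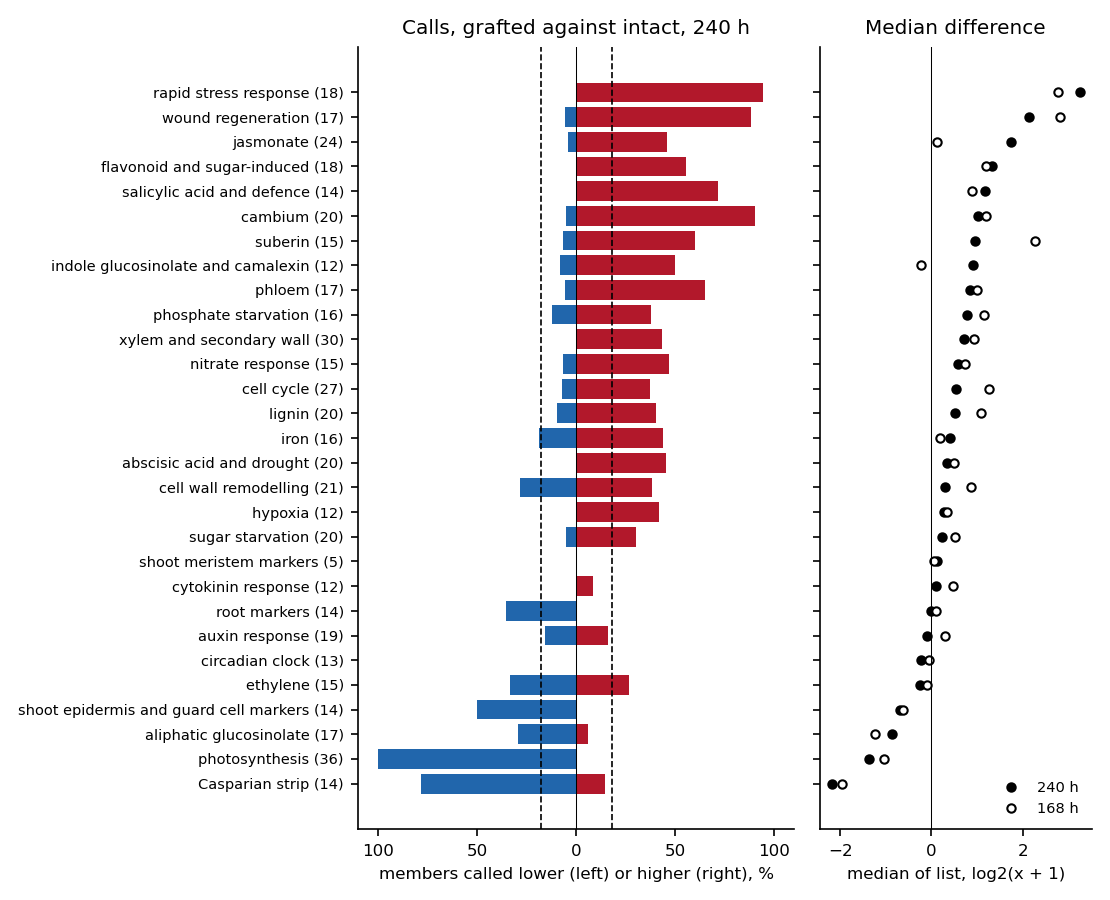
Members of each gene list called lower (blue) or higher (red) in grafted than in intact hypocotyls at 240 h, as a percentage of the members tested (numbers in brackets), and the list's median difference in log2(x + 1) at 240 h (filled) and 168 h (open). Dashed lines mark the 17.9% of all genes called in each direction; photosynthesis genes were all called lower, and rapid stress, wound regeneration and cambium genes nearly all higher.

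Regeneration genes were still raised. Of 17 tested genes of the wound regeneration list, 15 were higher and 1 lower (median 2.13), against 17.9% of all genes in each direction. On both sides 14 were higher, against 12.4% of all genes. ANAC071, a NAC transcription factor of tissue reunion in cut stems, was at 2.99 in both top libraries, at 4.37 and 3.97 in bottoms, and at 0 and 0.162 in intact tissue (2.07 ± 0.24, adjusted p = 8.1e-10). PLT3, a PLETHORA factor of regeneration, was at 20.6 and 19.3 in tops, 16.8 and 14.1 in bottoms, and 2.02 and 1.21 in intact tissue (2.84 ± 0.22, adjusted p = 6.3e-15). GH9B3, a glucanase of the family tied to graft adhesion in Nicotiana, was at 15.1 and 12 in tops, 15.8 and 13.7 in bottoms, and 0.243 and 0.486 in intact tissue (3.47 ± 0.22, adjusted p = 1.3e-17). Within these genes the 4 grafted libraries lay close together and well apart from the intact ones. PSK5, a phytosulfokine peptide gene, was higher by 2.41, PLT5 by 2.58 and RAP2.6L, an ERF factor of wound healing, by 2.13 (adjusted p = 1.7e-08). RAP2.6 was the 1 lower member (-1.32, adjusted p = 0.0033).

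Cambium genes were higher as a group. Of 20 tested, 18 were higher and 1 lower (median 1.03), against 17.9% of all genes in each direction. Both sides were higher for 16, against 12.4% of all genes. PXY, the receptor that keeps cambium cells dividing, was at 163 and 155 in tops, 140 and 141 in bottoms, and 83.6 and 78.5 in intact tissue (0.88 ± 0.25, adjusted p = 0.0044). WOX4, its target, was at 50.6 and 54.1 in tops, 38 and 48.7 in bottoms, and 14.8 and 14.7 in intact tissue (1.62 ± 0.24, adjusted p = 3.6e-07). ANT, an AP2-type growth regulator of the cambium, was at 119 and 101 in tops, 109 and 81.4 in bottoms, and 37.2 and 35 in intact tissue (1.47 ± 0.20, adjusted p = 4e-08). The DOF factor genes TMO6 (1.75) and PEAR2 (1.85) and the homeobox gene WOX14 (1.89) were higher as well. BP, a KNOX gene, was the 1 lower member (-0.47, adjusted p = 0.011). Of 27 cell cycle genes 10 were higher and 2 lower (median 0.53), led by CDC20.1 (2.11) and including the cytokinesis gene KNOLLE (1.13, adjusted p = 0.0018) and CYCB1;1 (0.73, adjusted p = 0.0058). Without the libraries numbered 1 the cell cycle counts were 5 and 1, and the higher count was 6 without grafted bottom replicate 1, 5 without intact replicate 1 and 6 without intact replicate 2.

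Xylem and phloem genes were higher in part. Of 30 tested xylem and secondary wall genes, 13 were higher and none lower (median 0.72), against 17.9% of all genes in each direction. VND7, which switches cells to vessel fate, was at 3.16 and 4.61 in tops, 2.99 and 2.51 in bottoms, and 0.324 and 0.243 in intact tissue (1.73 ± 0.21, adjusted p = 5e-09). MYB63, a regulator of lignin genes (1.76, adjusted p = 2.9e-08), and the nuclease genes RNS3 (1.76) and BFN1 (1.66), which act in dying cells, were also higher. The cellulose synthase gene CESA7 was at 11.3 and 5.99 in tops, 6.8 and 7.93 in bottoms, and 3.16 and 5.99 in intact tissue, so that the groups met, and it was not called (0.71 ± 0.36, adjusted p = 0.13). Of the other two secondary wall synthases, CESA4 differed by 0.85 (adjusted p = 0.065) and CESA8 by 0.42 (adjusted p = 0.48). Among 17 phloem genes 11 were higher and 1 lower (median 0.84). OPS, which promotes sieve element formation, was at 89.4 and 74.6 in tops, 87.1 and 66.1 in bottoms, and 15.8 and 16.8 in intact tissue (2.2 ± 0.18, adjusted p = 8.7e-14). APL, a master regulator of phloem identity, was higher by 0.90 ± 0.14 (adjusted p = 1.9e-06), and CALS7, the callose synthase of sieve plates, by 1.44. Genes of sugar loading were different: SUC2 was not called (-0.38, adjusted p = 0.5) and SWEET11, the 1 lower member, differed by -1.81 (adjusted p = 0.00072). Without the libraries numbered 1, 5 xylem genes were called higher and 3 phloem genes higher and 2 lower. Without intact replicate 1 alone 6 xylem genes were higher, and the phloem count was 6 without grafted bottom replicate 1, 7 without intact replicate 1 and 5 without intact replicate 2.

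**Figure D3:**
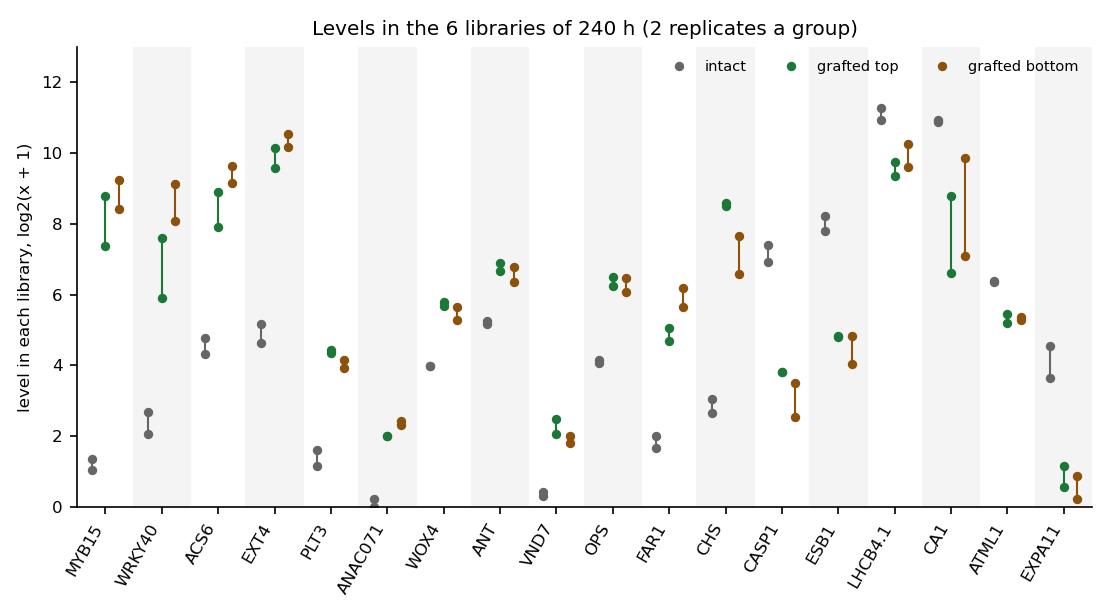
Level of 18 genes in each of the 6 libraries at 240 h, in log2(x + 1); points are libraries and lines join the 2 replicates of a group. For each of the 18 genes, which were picked for display, the 4 grafted libraries lie on 1 side of both intact libraries. Examples are MYB15 (165 to 603 against 1.05 and 1.54) and CASP1 (4.77 to 13 against 121 and 168). The groups did not overlap in 48% of all genes tested.

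Lignin, suberin and flavonoid genes were partly higher, in counts to be read beside the 17.9% of all genes called in each direction. In the lignin list 8 of 20 were higher and 2 lower, and 3 and 2 without the libraries numbered 1. The higher count was 5 without grafted top replicate 1, grafted bottom replicate 1 or intact replicate 1 alone. CAD5, an alcohol dehydrogenase of lignin synthesis, was at 193 and 135 in tops, 239 and 221 in bottoms, and 32.5 and 29.7 in intact tissue (2.6 ± 0.17, adjusted p = 5.3e-17). PAL1, at the entry of the pathway, was higher by 1.83 ± 0.30 (adjusted p = 2.4e-06). Both lower members are peroxidases that polymerise lignin, PRX64 (-3.23) and PRX72 (-2.41). Of 15 suberin genes 9 were higher and 1 lower (median 0.96). FAR1, which makes fatty alcohols of suberin, was at 24.5 and 32 in tops, 71.6 and 48.9 in bottoms, and 2.18 and 2.99 in intact tissue (3.55 ± 0.31, adjusted p = 5.9e-13), and FAR4 was higher by 2.89 ± 0.15 (adjusted p = 4.5e-21). ASFT, which adds ferulate to suberin, was the 1 lower member (-1.28, adjusted p = 0.00035). Of 18 flavonoid and sugar-induced genes 10 were higher and none lower (median 1.32). CHS, the first enzyme of flavonoid synthesis, was at 360 and 382 in tops, 94 and 200 in bottoms, and 7.28 and 5.26 in intact tissue (4.98 ± 0.65, adjusted p = 1.9e-08), and TT8, a regulator of anthocyanin genes, was higher in tops than in bottoms.

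Wall proteins moved both ways, as did all genes, of which 17.9% were called in each direction. EXT4, an extensin that crosslinks walls after wounding, was at 1141 and 763 in tops, 1486 and 1160 in bottoms, and 35.2 and 23.9 in intact tissue (5.21 ± 0.29, adjusted p = 3e-19). The xyloglucan-modifying gene XTH23 was higher by 4.18 ± 0.42 (adjusted p = 2.4e-11). Expansins loosen walls in growing cells. Those of the wall list went both ways, with EXPA1, EXPA5, EXPA8 and EXPA11 lower, EXPA4 (0.78) and EXPA15 (0.84) higher, and EXPA10 not called (-0.04, adjusted p = 0.97). EXPA11 was at 0.486 and 1.21 in tops, 0.162 and 0.809 in bottoms, and 22.2 and 11.6 in intact tissue (-3.40 ± 0.39, adjusted p = 1.1e-09). EXPA8 (-3.74) and EXP3 (-3.78) were lower on both sides and lowest in bottoms. Over the whole list of 21 cell wall remodelling genes, 8 were higher and 6 lower, with 4 higher without the libraries numbered 1. Extensins and related families share near-identical stretches, and the way reads were divided among copies is unknown.

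The gene with the lowest difference was AT2G10940, of the lipid-transfer and 2S albumin family. It was at 2.99 and 5.75 in tops, 0.647 and 0.243 in bottoms, and 149 and 130 in intact hypocotyls (-5.69 ± 0.46, adjusted p = 3.3e-14). The other genes among the 12 lowest, besides CASP1, EXPA8 and EXP3, differed by -4.40 to -3.63. They were AT5G63180 (pectin lyase-like), AT3G12710 (a DNA glycosylase), AT3G16370 (a GDSL lipase), AT1G44970 (a peroxidase), AT2G40113 (an Ole e 1-like extensin family protein), ST4C (a sulfotransferase), GER3 (a germin-like protein) and AT3G55230 (a dirigent-like protein). The 4 grafted libraries were below both intact ones for all 12, which were likewise picked by their difference. Over all genes tested the groups did not overlap in 48%.

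Casparian strip genes were lower in grafts, in a pattern that had reversed since 72 h. The list of 14 genes was compiled after these values had been seen, and serves as a description only. In it 11 genes were lower and 2 higher at 240 h (median -2.18), against 17.9% of all genes in each direction. Both sides were lower for 10, against 11.2% of all genes. CASP1 was at 12.9 and 13 in tops, 4.77 and 10.2 in bottoms, and 168 and 121 in intact tissue (-3.76 ± 0.32, adjusted p = 2.7e-13). ESB1, a dirigent protein that places lignin at the strip, was at 26.8 and 27.4 in tops, 15.5 and 27.5 in bottoms, and 300 and 222 in intact tissue (-3.39 ± 0.28, adjusted p = 9.6e-14). CASP2 (-3.51), the peroxidase gene PRX64 (-3.23) and UCC1 (-3.10), a uclacyanin of the strip, were in the same range. Signalling genes of the strip differed less or went the other way. The receptor gene SGN3 was lower (-1.21 ± 0.21, adjusted p = 1e-05), and the regulator gene MYB36 was at 10.8 and 15.9 in tops, 8.98 and 14.2 in bottoms, and 21 and 21.1 in intact tissue (-0.74 ± 0.29, adjusted p = 0.041). The peptide genes CIF1 and CIF2, whose products activate SGN3, were higher, CIF1 with 11.2 and 14.3 in tops, 9.23 and 10.4 in bottoms, and 1.78 and 2.67 in intact tissue (1.92 ± 0.20, adjusted p = 8.5e-11), and CIF2 by 1.43 ± 0.20 (adjusted p = 7.4e-08). RBOHF, the oxidase that feeds lignification, was not called (0.50, adjusted p = 0.087).

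The course of CASP1 shows the turn. At 48 h it was at 123 and 130 in tops, 43.2 and 104 in bottoms, and 3.97 and 9.14 in intact hypocotyls. The intact level then rose to 178 and 215 at 120 h, while tops were at 35.1 and 40.8 and bottoms still at 141 and 180. At 168 h tops were at 16.2 and 18.2 and bottoms at 54.3 and 86.2, against 169 and 207 in intact tissue. Grafted minus intact went from 3.72 at 48 h to -1.32 at 120 h and -2.40 at 168 h. Over the list, 12 genes were called higher and 1 lower at 48 h and 13 higher at 72 h, with none lower. By 120 h the counts were 3 higher and 7 lower, and by 168 h 3 and 10. At 240 h separated tops had CASP1 at 3.56 and 4.13 and separated bottoms at 0.405 and 1.29. Over both sides, 12 of the 14 genes were called higher in grafted than in separated tissue at that time and none lower.

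**Figure D4:**
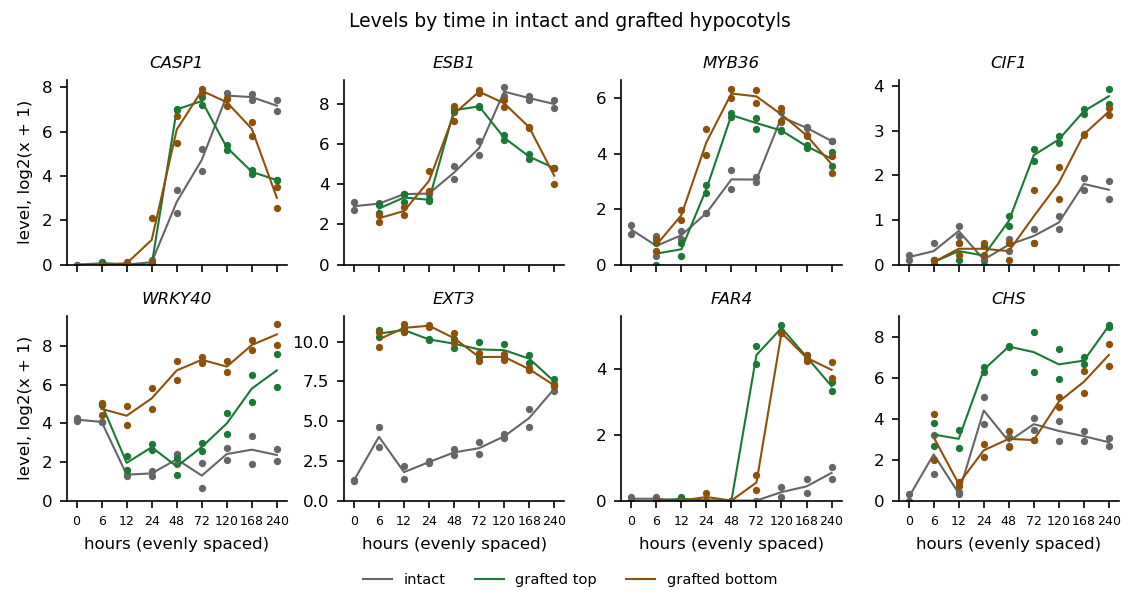
Levels of 8 genes from 0 to 240 h in intact (grey), grafted top (green) and grafted bottom (brown) hypocotyls, in log2(x + 1); points are libraries, lines are means of 2 replicates, and times are evenly spaced. CASP1, ESB1 and MYB36 are higher in grafts at 48 and 72 h and lower at 240 h, CIF1 is higher from 72 h in tops, and EXT3 meets its intact level at 240 h.

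Genes of photosynthesis were lower in every grafted library. All 36 tested were called lower (median -1.36), against 17.9% of all genes, and 34 of them on both sides, against 11.2%. LHCB4.1, a light-harvesting protein of photosystem II, was at 655 and 857 in tops, 774 and 1222 in bottoms, and 2485 and 1953 in intact tissue (-1.37 ± 0.24, adjusted p = 6.3e-06). SBPASE, an enzyme of the Calvin cycle, differed by -1.41 ± 0.23 (adjusted p = 2.2e-06), and the photosystem genes PSAG and PSBQ2 by -1.63 and -1.33. The summed level of the list was 32211 to 65913 in grafts and 102949 to 122844 in intact tissue. This count depended on scaling and on replicate: 17 were called lower after quantile normalisation (median -0.68), and 4 without the libraries numbered 1 (median -0.92), with none higher in either. Several light-harvesting and Rubisco genes have near-identical copies, so the values of single members are uncertain.

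Markers of the shoot surface moved with these genes, in counts to be read beside the 17.9% of all genes called lower. Of 14 tested epidermis and guard cell markers, 7 were lower and none higher (4 lower without the libraries numbered 1), including the epidermal regulators ATML1 (-1.04, adjusted p = 1.8e-05) and PDF2 (-1.36, adjusted p = 5.5e-07). Their summed level was 677 to 785 in grafts and 1319 to 1475 in intact tissue, while SPCH and CER1 were at 0 in all 6 libraries. Their part in the lower photosynthesis levels was not tested. Root markers summed to 49.8 to 76.7 in grafts and 243 to 345 in intact tissue. Endodermal genes, among them CASP1, CASP2, MYB36 and SCR, made up that sum, since the root hair and root tip markers COBL9, RHD6, RSL4, EXPA18 and PLT2 were at 0 in all 6 libraries and EXPA7, PRP3, WOX5 and PLT1 at no more than 0.162. None of 5 tested shoot meristem markers was called over both sides.

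The glucosinolate, phosphate, iron, nitrate and sugar starvation lists held calls in both directions, and the hypoxia list held higher ones only. Beside these counts, 17.9% of all genes were called in each direction. Of 17 aliphatic glucosinolate genes 5 were lower and 1 higher (median -0.87). CYP79F1, which commits methionine derivatives to these defence compounds, was at 0 and 0.405 in tops, 26.6 and 18 in bottoms, and 53.3 and 18 in intact tissue (-2.62 ± 0.66, adjusted p = 0.0013). The level of bottoms overlapped that of intact tissue, and only tops stood apart. None of the list was called lower without the libraries numbered 1 or without intact replicate 1 alone, and 3 were without grafted top replicate 1. Among 12 tested indole glucosinolate and camalexin genes, 6 were higher and 1 lower, from CYP81F4, a modifying enzyme (4.79 ± 0.31, adjusted p = 3.8e-17), to the regulator gene MYB122, the lower one (-2.07, adjusted p = 1.8e-11). Of 16 phosphate starvation genes 6 were higher and 2 lower, with the phosphate transporter gene PHT1;4 higher by 2.65 (adjusted p = 6e-05). In the iron list 7 of 16 were higher, and the 3 lower ones were the storage protein genes FER1 (-1.74), FER3 (-1.17) and FER4 (-1.44). Of 15 nitrate response genes 7 were higher and 1 lower, and of 12 hypoxia genes 5 were higher, among them ADH1 (0.98, adjusted p = 0.0048). Of 20 sugar starvation genes 6 were higher and 1 lower, and without the libraries numbered 1 those counts were 1 and 0; ASN1, a usual marker, was not called (-1.31, adjusted p = 0.097). Most of these counts fell when libraries were left out. Calls over all genes fell in the same fits. The effect of having fewer libraries was not separated from that of a particular library. The iron count of 7 higher was 2 without the libraries numbered 1, 3 without intact replicate 1, and 4 without intact replicate 2, grafted top replicate 1 or grafted bottom replicate 1. It was 1, with 1 lower, when the 6 libraries were fitted alone. The sugar starvation count of 6 was 2 without intact replicate 1 and 3 without either grafted replicate 1. Without intact replicate 1, 3 phosphate and 3 hypoxia genes were higher, and 2 hypoxia genes without intact replicate 2. Without the libraries numbered 1, 3 indole glucosinolate genes were higher, and without those numbered 2, 4 nitrate genes.

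Most of the difference at 240 h was already present in other libraries of the course. The same contrast at 168 h called 7688 genes (37%), 20% higher and 17% lower. Of the 2570 genes higher on both sides at 240 h, 2296 (89.3%) were called higher at 168 h and 2 lower. Of the 2330 lower genes, 2003 (86.0%) were called lower at 168 h and 3 higher. Earlier in the course the share of the higher genes already called higher was smaller. It was 84.2% at 120 h against 25.9% of all genes tested, 72.3% against 24.1% at 72 h, and 63.1% against 20% at 48 h. On the first day it was 53.5% against 19.8% at 24 h, 45.0% against 18.1% at 12 h, and 44.3% against 21.4% at 6 h. The lower genes were called lower in 65.9% at 6 h (21.3% of all genes), in 41.6% after 12 h (21.6%) and in 71.8% after 24 h (22.3%). Later values were 79.0% at 48 h (23.1%), 77.0% after 72 h (22.1%) and 82.5% after 120 h (21.2%). At every time both shares were thus above those of all genes, with the smallest gap for lower genes at 12 h. Called the same way at all 7 other times were 730 higher genes (28.4%) and 663 lower genes (28.5%), while 105 and 94 were called the same way at no other time. The 4299 genes called at both 240 and 168 h became 2750 without grafted bottom replicate 1 of 240 h and 1580 without the libraries of 240 h numbered 1.

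**Figure D5:**
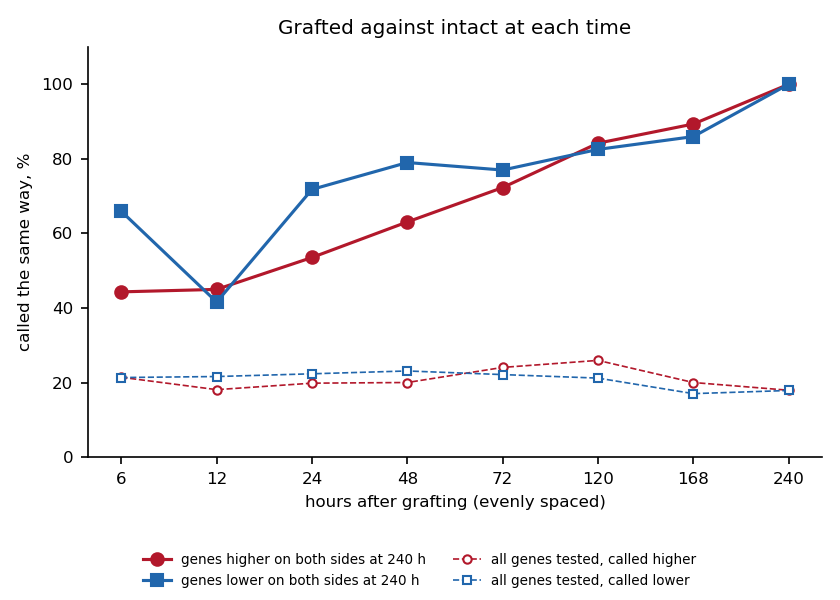
Percentage of the genes higher (red) or lower (blue) on both sides at 240 h that were called the same way in grafted against intact hypocotyls at each time; open symbols give the percentage of all genes tested. Points at 240 h are 100% by choice of the genes. The share of the higher genes was 44.3% at 6 h and 89.3% at 168 h, against 21.4% and 20% of all genes.

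The lists had different courses. Wound regeneration genes peaked early, with a median difference of 3.97 at 12 h that had dropped to 2.13 by 240 h. Rapid stress genes had a median of 1.17 at 6 h, 2.42 at 24 h and 2.77 at 168 h. It was highest at 240 h, 3.25, but none of the 18 members was called for the change from 168 h. WRKY40 in tops was at 1.54 to 6.8 from 12 to 72 h, near its intact level of 0.566 to 4.29, and then at 33 and 90.8 at 168 h, before the 191 and 58.7 of 240 h. In bottoms it was already at 139 and 174 at 72 h. Suberin genes appeared late, with a median of 0.13 at 48 h and 2.95 at 72 h, which reached 4.02 at 120 h and was 0.96 by 240 h. FAR4 was at no more than 0.162 in all intact and grafted libraries up to 48 h, at 16.8 and 25.2 in tops at 72 h, and at 33.3 to 39.8 in all grafted libraries at 120 h. Xylem genes peaked at 120 h with a median of 2.30, as cambium genes did with 1.42, and cell cycle genes at 72 h with 2.40. ANAC071 peaked at 53.5 and 56.1 in tops at 24 h and was at 2.99 in both at 240 h.

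Few changes of the difference were called between 168 and 240 h, by a contrast with larger standard errors than that of either time. For CASP1 the standard error was 0.46, against 0.32 at each time. The CASP1 change of -1.36 was not called (limma, adjusted p = 0.2), so changes of that size can be missed. The change of grafted minus intact was called for 208 genes (1%), of which 47 moved up and 161 down; 98 were called without intact replicate 2 of 168 h and 64 without intact replicate 2 of 240 h. Of the 15 suberin genes 8 moved down and none up, among them FAR4 (3.93 at 168 h, 2.89 at 240 h) and FAR5 (3.68 and 2.33). PLT3 (4.18 and 2.84) and GH9B3 (4.81 and 3.47) moved down too. EXT3, an extensin, moved down by more (-3.06, adjusted p = 8.3e-05). It was at 409 and 581 in tops, 292 and 323 in bottoms, and 24.2 and 52.2 in intact tissue at 168 h. At 240 h it was at 198 and 162 in tops, 148 and 155 in bottoms, and 116 and 144 in intact tissue, where the difference was not called (0.34 ± 0.34, adjusted p = 0.48). The intact level had risen from 1.38 and 1.46 at 0 h, so grafted and intact tissue approached each other from both ends. GRX480 moved up, from 2.32 to 4.19.

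Tops and bottoms of the grafts were more alike than either was to intact tissue in the count of genes called. Between them 566 genes were called (2.73%), 213 higher in tops and 353 higher in bottoms, by a test that does not use the intact libraries. Of the 4900 genes called on both sides in 1 direction, 290 also differed between the sides. Of those, 177 were higher than intact and higher still in bottoms, 35 were higher still in tops, 53 were lower and lowest in bottoms, and 25 were lower and lowest in tops. CYP94B3 was at 7.53 and 1.7 in tops, 57.3 and 34.6 in bottoms, and 0.243 and 0 in intact tissue. AT3G16370 was lower in bottoms, at 4.45 and 6.96, than in tops, at 36.8 and 35.4, with 249 and 229 in intact tissue. STM, which maintains the shoot meristem, was among the 7 genes called in opposite directions, with 10.5 and 5.66 in tops, 0.647 and 0.566 in bottoms, and 3.48 and 2.51 in intact tissue. OCT1, a carnitine transporter gene, went the other way, with 0.89 and 0.728 in tops, 15.4 and 9.95 in bottoms, and 2.35 and 1.78 in intact tissue. The count of 566 depended on the fit: it was 11 when the 10 libraries of 240 h were fitted alone and 0 when the 6 were, by limma, with 2641 genes at an unadjusted p under 0.05. It was 935 with the replicate number as a block, 318 without grafted bottom replicate 1 and 334 without grafted top replicate 2.

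Joined and unjoined tissue differed at 240 h as well. Grafted minus separated, over tops and bottoms, called 8647 genes (41.6%), 4287 higher and 4360 lower, and this contrast shares the 4 grafted libraries with those above. Cambium genes (15 of 20 higher, none lower), xylem genes (20 of 30 higher, 1 lower), phloem genes (12 of 17 higher, 1 lower) and suberin genes (13 of 15 higher, none lower) were higher in grafts over both sides, against 20.6% of all genes. The summed levels of several lists stood apart below the junction only. The cambium sum was 1924 and 2052 in grafted tops and 2002 and 2122 in separated tops, but 1550 and 1740 in grafted bottoms and 581 and 597 in separated bottoms. The xylem sum was 332 and 423 in grafted tops and 360 and 403 in separated tops, against 261 and 298 in grafted and 89.5 and 93.1 in separated bottoms. The phloem sum was 745 and 832 in grafted tops and 723 and 746 in separated tops, against 583 and 760 in grafted and 166 and 207 in separated bottoms. Suberin sums differed on both sides, with 275 and 295 in grafted and 199 and 205 in separated tops, and 372 and 452 in grafted and 1.62 and 2.02 in separated bottoms. The sides were not tested one by one. Auxin response genes were higher in 10 of 19, with sums of 565 and 588 in grafted and 547 and 620 in separated tops, and 408 and 423 in grafted and 53.5 and 54.9 in separated bottoms. Cytokinin response genes were lower in 7 of 12, with sums of 192 and 242 in grafted and 199 and 222 in separated tops, and 169 and 219 in grafted and 449 and 530 in separated bottoms. Sugar starvation genes were lower in 14 of 20 and higher in 1, and their summed level was 727 to 1240 in grafts, 569 to 777 in intact tissue, 1603 and 1921 in separated tops and 4231 and 4559 in separated bottoms. Rapid stress genes were raised in all cut tissue: their sum was 1131 to 2536 in the separated libraries, and 9 of 18 were higher and 2 lower in grafts than in separated tissue. MYB15 was at 260 and 352 in separated tops, within the range of the grafts, and at 5.18 and 8.58 in separated bottoms, below all grafted libraries. The wound regeneration sum was 1051 to 1180 in grafts, and higher in separated tops (1328 and 1512) and separated bottoms (1698 and 1725). Of 17 genes of that list 7 were higher and 4 lower in grafts than in separated tissue.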

How the data were processed

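RNA was sequenced from polyadenylated, strand-marked libraries amplified by 15 PCR cycles, with 11 to 12 barcoded samples in each of 7 lanes, per the labels' protocols, but the lane of each is unknown. cutadapt 1.8.1, Bowtie2 and the genome build TAIR10 are given in the submitters' processing notes. The counting tool, use of strand and scaling were not given in the sources used, so overlapping, antisense and near-identical genes are uncertain. The deposited library-normalised table holds whole numbers that the authors had normalised and rounded, so its values were treated as scores, not as reads, and no count test was run. Its library-normalised and its library- and length-normalised columns all matched a sample.

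Values were multiplied by 0.0809 to give x, and 20766 of 27416 genes reached an x of 1 in 2 or more of the 82 libraries and were kept. limma 3.58.1 (R 4.3.3) was fitted to log2(x + 1) with 1 mean for each of 41 groups (41 residual degrees of freedom, eBayes with trend, 5.00 prior degrees of freedom), and p-values were adjusted by Benjamini-Hochberg over all genes tested. All other numbers came from Python 3.11.15 with NumPy 2.4.6, pandas 2.3.3 and Matplotlib 3.10.9. With 2 libraries a group, p-values lean on a spread shared by all groups. On data simulated for grafted minus intact at 240 h over 20766 genes, calls recovered 30 of 67 planted changes of 1.5-fold, 53 of 67 planted 2-fold changes and 64 of 66 planted 4-fold changes. Of 20566 unchanged genes 10 were called. Changes were planted only in genes with an intact log2(x + 1) above 2, so recovery of lower genes was not measured. Far fewer genes were changed than were called in the real data, so the adjustment was stricter in the simulation. The simulated noise was normal and independent in each library, without the joint deviations of same-numbered tops and bottoms. The simulation therefore does not show how often calls in the real data are false.

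The members and the gene lists were chosen with earlier results of these data known, and no list was tested as a set. Genes were named by rule: the 12 highest and the 12 lowest among genes called on both sides with a mean x of at least 5, up to 4 called members of each list with the smallest adjusted p, up to 5 genes called in opposite directions, and a panel of 21. The Casparian strip list and single members named as exceptions or beside a count (among them FRK1, JAZ9, RAP2.6, BP, CESA4, CESA8, SWEET11, PRX72 and ASFT) were chosen after their values were seen. 26719 identifiers matched the RefSeq annotation of TAIR10.1, which supplied names and promoters; 15 list members had values too low to test. Some list members are counted but not reported singly here. Deviations of same-numbered tops and bottoms from their group means correlated at 0.148 to 0.506 across genes at all 8 times, so the numbers pair tops with bottoms, judged from the values. With intact libraries the correlation was 0.0285 for tops and 0.00171 for bottoms at 240 h, and 0.251 and 0.261 at 168 h. It was above 0.1 on both sides at 6, 12, 24, 72 and 168 h and below at 48, 120 and 240 h, so the numbers do not pair grafted with intact plants at every time. Alternatives changed the pseudocount, the filter, the scaling, the table, the libraries fitted, the replicate block, the trend, the threshold and the control, and left out each library of 168 and 240 h in turn.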

Additional observations from a re-analysis of the deposited data

Results flagged for a closer look

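Differences between the sides of the graft. The top and bottom of the graft differed at 240 h in 566 genes, by limma's test of the difference itself with Benjamini-Hochberg adjustment. In log2(x + 1), top minus bottom, some regulators and defence genes raised on both sides were lower in tops: RRTF1 by -2.06, AT1G19210 by -1.64, WRKY48 by -1.39, WRKY40 by -1.86, AT5G52050 by -1.59 and AT3G02840 by -1.74. The same held for the jasmonate genes JAZ8 (-1.84) and CYP94B3 (-3.25), for GRX480 (-1.34), for the sugar-starvation gene EXL1 (-1.48) and for the suberin gene GPAT7 (-1.09). TT8 was higher in tops (2.44).

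Of the 2330 genes lowered on both sides, 53 were lower still in bottoms and 25 in tops. In log2(x + 1), top minus bottom, AT2G10940 differed by 1.86, AT5G63180 by 2.26, AT3G12710 by 1.55, AT3G16370 by 2.49, AT1G44970 by 1.55, ST4C by 1.79, EXP3 by 2.29 and EXPA8 by 1.94. The aliphatic glucosinolate list had 1 of 17 genes lower than intact on both sides. Its members MYB29 (-2.08), CYP79F1 (-4.27) and CYP83A1 (-2.58) were lower in tops than in bottoms. Among genes called in opposite directions against intact tissue, STM (2.45), TTG2 (1.78) and AT5G56840 (1.58) were higher in tops, and AT2G28780 (-2.70) and OCT1 (-2.89) higher in bottoms.

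Changes between 168 and 240 h. The difference between grafted and intact tissue changed in 208 genes, by limma's interaction contrast. It moved down for ST4C (-1.69), GH9B3 (-1.34), PLT3 (-1.34), FAR4 (-1.04), FAR5 (-1.34), NPC4 (-1.61) and EXT3 (-3.06), and up for GRX480 (1.87) and SOT16 (1.39).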

How the results depend on the processing

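Of 141 named genes 129 were called at 240 h, and 108 kept their direction and their side of the threshold under all 21 alternatives. The others gave 87 values that missed the threshold and 13 that newly passed it, and none reversed. Fitting the 6 libraries alone lowered the both-sides count to 2704, that of tops to 4282 and that of bottoms to 3637, and the count between tops and bottoms to 0 (11 with the 10 libraries of 240 h; fewer samples stood in both fits). At an adjusted p under 0.01, 258 genes differed between tops and bottoms and 91 changed between 168 and 240 h. With the replicate number as a block, 935 genes differed between tops and bottoms, 8137 between grafted and intact tissue, and 5548 on both sides, of which 4890 were among the 4900; 8430 were called at 168 h and 311 for the change from 168 to 240 h.

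Leaving out libraries of the groups compared gave 3604 to 7456 genes for grafted against intact at 240 h, 2870 to 6095 for tops, 2592 to 5676 for bottoms, 1670 to 4630 on both sides, 1580 to 4263 of those also called at 168 h, 155 to 510 between tops and bottoms, 5601 to 7603 at 168 h, 5929 to 8180 against separated tissue and 64 to 232 for the change from 168 to 240 h. Single libraries mattered most where grafted bottom replicate 1 of 240 h was left out (2964 on both sides, 2750 of them also at 168 h, 3495 for bottoms, 318 between tops and bottoms), or grafted top replicate 1 (4026 for tops); without replicate 2 of all 3 groups 211 genes differed between tops and bottoms. No library of 6 to 120 h was left out. A group left with 1 library was assumed to vary like the other groups. The lowest value came from leaving out replicate 1 of all 3 groups except at 168 h and for the change; the cause was not tested. Scaling moved the share of higher calls: 50.1% of calls at 240 h were higher, 59.2% after median-of-ratios scaling and 43.3% after quantile normalisation. After quantile normalisation 3434 genes were higher and 4738 lower at 168 h, and 4420 and 5942 at 120 h; after median-of-ratios scaling 4287 were higher and 3268 lower at 12 h. Depth limits genes near an x of 1, which rest on about 10 reads.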
